A study of Mus musculus with 18 samples.

Results

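The genes described here are a module of 37 mouse genes known to be induced by type I interferon, measured in T cells sorted from B16 melanoma and from spleen. The members were named by their function, and a member was used where 3 or more of the 18 arrays detected at least 1 of its probes (detection p under 0.05). Of the 37 genes, 36 had a named probe, 31 passed this filter, and all 14581 genes that passed it were analysed together. The animals were female C57BL/6 mice of the genotype Foxp3-GFP-DTR-CD90.1, a reporter and depletion allele driven from the Foxp3 locus, and each carried a tumour grown from 50000 subcutaneously injected B16F10 melanoma cells. Both tissues were collected at a tumour diameter of about 10 mm, and cells were pooled ahead of the sort. Regulatory T cells (Treg, CD4+CD25+Foxp3+ CD8- CD11b-), conventional CD4 T cells (Tconv, CD4+Foxp3- CD8- CD11b-) and CD8 T cells (CD8+ CD4- CD11b-) were sorted from each tissue, which gave 6 groups of 3 arrays. No group was treated with interferon or kept free of tumour, so the spleen groups are those of tumour-bearing mice. Ages and the number of pooled animals were not given in the sources used here.

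Type I interferons signal through the receptor Ifnar1/Ifnar2 and the kinases Jak1 and Tyk2 to a complex that includes Stat2 and Irf9 and binds the interferon-stimulated response element (ISRE) near the start of its target genes. The targets include sensors of foreign RNA and DNA, enzymes that degrade or block viral RNA, membrane proteins that hinder viral entry or release, and feedback genes such as Usp18, which dampens the receptor. T cells express many of these genes at rest, and in T cells type I interferon is known to act on survival, proliferation and effector function.

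To show the element in the members whose levels are described below, the promoter windows of 6 members are printed. They are the members with the smallest p in the test over the 6 groups among those that hold a match. The windows are those of RefSeq on build GRCm38.p6, from 250 bases before to 50 bases after each gene's start, written 5′ to 3′ on the strand of the gene. Capitals mark each match, on either strand, to the core of the element, which is GAAA, any 2 bases and GAAA again.
Eif2ak2, chr17:78882523-78882822, minus strand: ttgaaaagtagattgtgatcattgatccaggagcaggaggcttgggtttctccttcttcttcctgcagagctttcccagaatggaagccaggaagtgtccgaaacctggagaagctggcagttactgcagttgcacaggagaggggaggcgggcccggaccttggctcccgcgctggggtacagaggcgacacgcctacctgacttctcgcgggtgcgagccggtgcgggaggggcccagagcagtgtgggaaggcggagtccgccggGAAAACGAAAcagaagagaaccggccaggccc
Ifitm3, chr7:141010695-141010994, minus strand: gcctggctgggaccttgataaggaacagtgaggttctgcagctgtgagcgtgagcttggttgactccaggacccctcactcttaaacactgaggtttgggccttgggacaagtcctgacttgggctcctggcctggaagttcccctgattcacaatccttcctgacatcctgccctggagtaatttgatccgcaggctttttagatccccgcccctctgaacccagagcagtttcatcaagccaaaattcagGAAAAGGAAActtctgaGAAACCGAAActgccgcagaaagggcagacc
Ifitm2, chr7:140955912-140956211, minus strand: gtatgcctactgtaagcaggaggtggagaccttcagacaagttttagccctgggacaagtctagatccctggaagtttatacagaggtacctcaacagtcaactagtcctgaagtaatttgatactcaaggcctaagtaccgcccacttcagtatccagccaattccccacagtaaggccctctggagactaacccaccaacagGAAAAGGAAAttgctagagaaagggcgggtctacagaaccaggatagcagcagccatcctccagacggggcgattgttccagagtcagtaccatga
Ifit3, chr19:34583279-34583578, plus strand: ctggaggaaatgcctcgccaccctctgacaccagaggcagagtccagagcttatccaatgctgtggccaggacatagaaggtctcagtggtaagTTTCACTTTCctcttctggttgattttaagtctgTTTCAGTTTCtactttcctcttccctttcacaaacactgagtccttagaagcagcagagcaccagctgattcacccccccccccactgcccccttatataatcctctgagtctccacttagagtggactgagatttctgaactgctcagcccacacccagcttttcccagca
Stat2, chr10:128270248-128270547, plus strand: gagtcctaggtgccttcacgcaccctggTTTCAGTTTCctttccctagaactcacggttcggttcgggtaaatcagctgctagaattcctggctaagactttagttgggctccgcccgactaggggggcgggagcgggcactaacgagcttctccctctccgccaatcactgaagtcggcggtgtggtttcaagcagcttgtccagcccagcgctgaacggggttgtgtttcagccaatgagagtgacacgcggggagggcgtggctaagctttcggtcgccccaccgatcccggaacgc
Rsad2, chr12:26456403-26456702, minus strand: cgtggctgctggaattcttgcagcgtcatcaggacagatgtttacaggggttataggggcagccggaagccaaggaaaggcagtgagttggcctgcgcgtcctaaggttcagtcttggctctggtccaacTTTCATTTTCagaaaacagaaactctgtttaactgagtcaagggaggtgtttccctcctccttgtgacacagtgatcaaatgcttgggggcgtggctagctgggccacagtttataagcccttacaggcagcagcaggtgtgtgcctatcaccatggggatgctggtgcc

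A window was found for 27 of the 37 members, and 14 of these held at least 1 match to the core on either strand, with overlapping matches counted, which is 51.9% (Wilson 95% interval 34.0% to 69.3%). Among the windows of all 27025 genes, 1079 genes held one, or 3.99%. With a final C added to the core, which is a stricter form contained in the first, 11 of the 27 members (40.7%) and 255 of all genes (0.944%) held a match. The holders were Bst2, Ddx58, Eif2ak2, Ifih1, Ifit1, Ifit3, Ifitm2, Ifitm3, Isg15, Oas1a, Oas3, Rsad2, Stat2 and Trim30a. In Ifitm3 both matches lay just after the start of the gene, and in Ifit3 both lay before it. The window of Ifitm1, which moved with Ifitm2 and Ifitm3 in the results below, held no match to these letters.

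The members were unevenly detected. Ifit1, which binds foreign RNA, and Mx1, an antiviral GTPase, were detected on 0 of the 18 arrays, and Ifi44 had no named probe. Ifih1, a sensor of long double-stranded RNA, Oas1a, an oligoadenylate synthetase, and Parp9, an ADP-ribosyltransferase, were detected on 2 arrays each and fell just outside the filter. Mx2, with 3 arrays, was just inside it, and Irf7, the transcription factor that amplifies interferon production, and Oas2 were detected on 8. A detection call depends on the probe as well as on the transcript, so these counts do not measure absence of expression. Levels below are log2 intensities after background correction with an offset of 16 and quantile normalization, on which the floor lies at 4.03. They are compared between groups for 1 probe at a time and never between genes.

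Every array held T cells by its markers. Of the 4 Foxp3 probes, 1 separated the sorted populations: ILMN_1225330 read 8.24 to 9.32 on the 6 Treg arrays and 4.07 to 4.41 on the other 12. The other Foxp3 probes did not, and the brightest of them over all arrays, ILMN_1251126, read 6.77 to 7.87 on the Treg arrays and 5.88 to 7.45 on the other 12. The probes of Cd4, Cd8b1 and Cd3e followed the labels. Median signals ran from 79 to 88.1, between 38.0% and 45.2% of probes were detected, and each BeadChip held 1 array of each group, so that a replicate number names a BeadChip. Each group had the same position on every BeadChip, so group and position cannot be told apart. In these bulk samples, fewer cells of a type and less RNA in each cell cannot be told apart either.

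The members varied more among replicates than most genes did. Their median within-group SD was 0.44 on the log2 scale, beside 0.30 over all genes, and 24 of 31 members lay above the median of all genes. Rsad2 (SD 1.00), Usp18 (SD 0.97) and Ifitm1, Ifitm2 and Ifitm3 (0.76, 0.76 and 0.72) were among the 9 members above the 90th percentile. The smallest SDs were those of Irf7 (0.11) and Mx2 (0.17), which lay near the floor, and among brighter members Samhd1 (0.18), Sp100 (0.21), Ifi27l2a (0.22) and Trim30a (0.22) were tight.

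**Figure D1:**
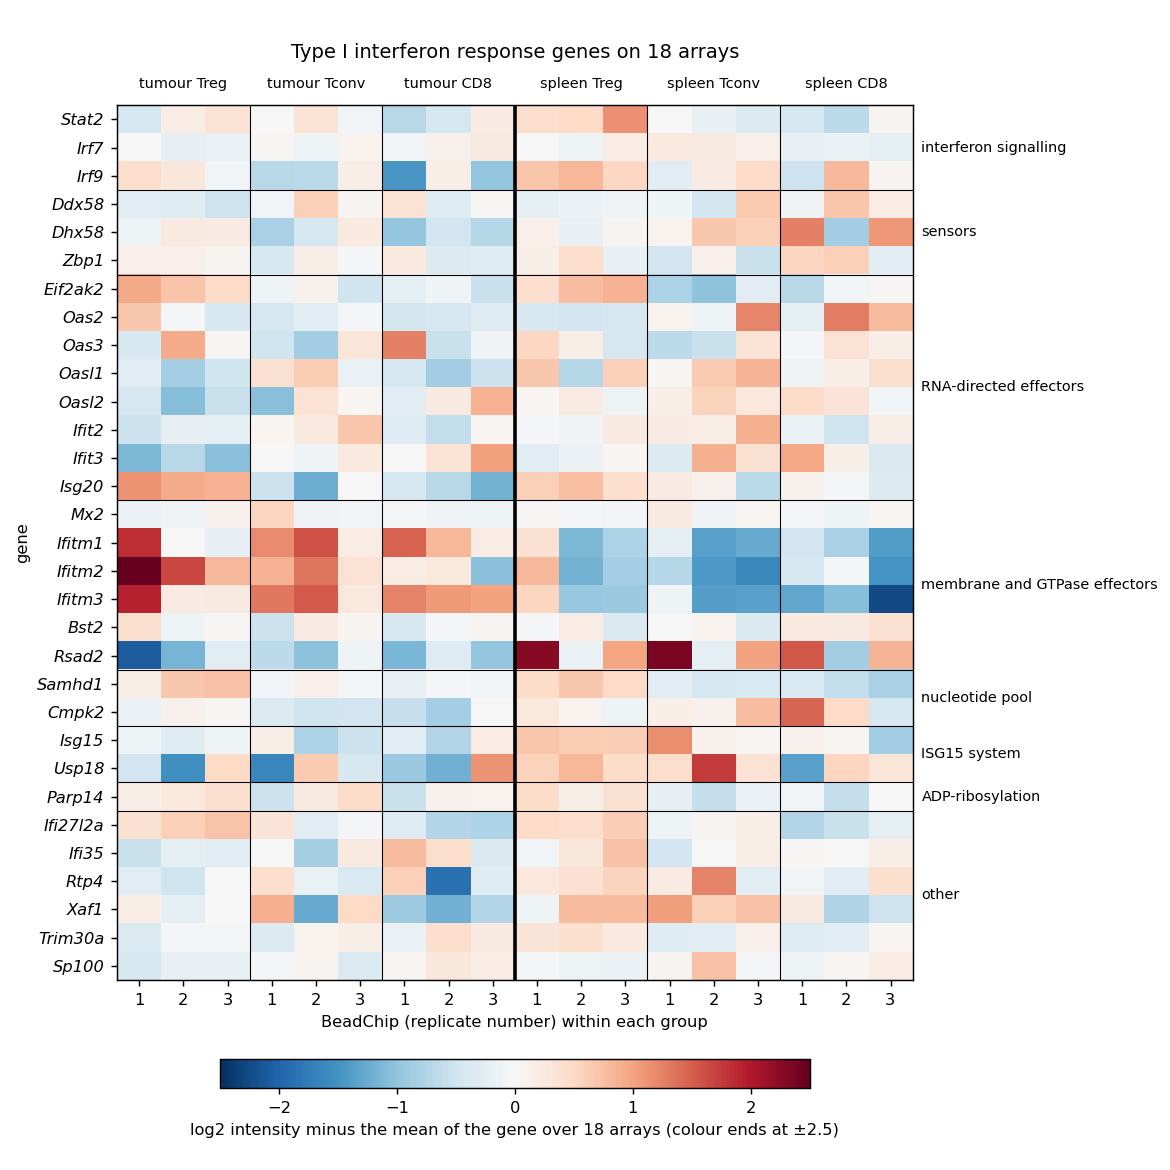
Each row is 1 of the 31 members and each column 1 array, ordered by group and by BeadChip. Colour is the log2 intensity minus the mean of that gene over the 18 arrays. The Ifitm rows are mostly red in tumour and blue in spleen and Rsad2 is the opposite, whereas most other rows differ as much within a group as between groups.

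Across the 3 populations together, the sorted samples from tumour read higher than those from spleen for Ifitm3 by 3.87-fold, Ifitm1 by 2.98-fold and Ifitm2 by 2.91-fold, and lower for Rsad2 by 3.30-fold. Of 19 markers of macrophages and monocytes, 12 were also higher in the tumour samples, and their part in these values was not tested. On the 9 spleen arrays Ifitm3 was detected on 8, Ifitm2 on 7 and Ifitm1 on 5, and the other spleen arrays were not above background. These were 4 of the 31 members at an adjusted p under 0.05 in limma, where 5.21% of all genes were called, with 3 higher (3.45% of all genes) and 1 lower (1.76%). With the BeadChip as a term in the model the same 4 were called, beside 5.38% of all genes. With the mean of a gene's detected probes in place of the brightest, 3 were higher and 3 lower, with Oasl2 and Usp18 added to Rsad2. Over all 14581 genes that setting called 561 higher and 305 lower. The other 27 members did not pass with the brightest probe, 12 of the 31 had an unadjusted p under 0.05 (16.4% of all genes), and the median difference of the members was -0.12 on the log2 scale beside -0.02 over all genes. Of the 12 with an unadjusted p under 0.05, 8 were lower in tumour and 4 higher. The split by direction over all genes was not worked out at that threshold. Among all 31 members 23 had a negative difference and 8 a positive one, beside 46.0% positive over all genes. With median scaling the median difference of the members was 0.01, beside 0.05 over all genes. Rise and fall thus both occurred within the module, with more members lower than higher in the main fit. Ifitm proteins sit in plasma and endosomal membranes and hinder the fusion of enveloped viruses, and Rsad2 (viperin) is a radical SAM enzyme that makes an antiviral nucleotide.

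Ifitm3 read 8.45, 6.73 and 6.75 on the tumour Treg arrays of BeadChips 1, 2 and 3, and 7.07, 5.58 and 5.60 on the spleen Treg arrays. It read 7.85, 8.06 and 6.79 on the tumour Tconv arrays and 6.41, 5.15 and 5.16 on the spleen Tconv arrays. In CD8 cells it read 7.76, 7.59 and 7.53 in tumour and 5.23, 5.46 and 4.28 in spleen. Tumour and spleen did not overlap in Tconv or CD8 cells, while in Treg cells the highest spleen array lay above 2 of the 3 tumour arrays. On each BeadChip, every population was higher in tumour. Averaged over populations the difference was 1.95 ± 0.31 (SE, adjusted p = 0.00113 in limma), and it was 1.78, 2.06 and 2.01 on BeadChips 1, 2 and 3.

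Ifitm1 was likewise higher in tumour in each population on each BeadChip. It read 7.36, 5.52 and 5.30 in tumour Treg cells against 5.89, 4.38 and 4.72 in spleen, 6.69, 7.10 and 5.69 in tumour Tconv cells against 5.26, 4.15 and 4.25, and 6.98, 6.33 and 5.69 in tumour CD8 cells against 5.02, 4.71 and 4.12. In Treg cells BeadChip 1 stood well above the other BeadChips in both tissues, and in Tconv and CD8 cells the tissues did not overlap. The mean difference was 1.57 ± 0.33 (SE, adjusted p = 0.00883 in limma), or 1.62, 1.90 and 1.20 by BeadChip. Ifitm1 had 3 probes past the filter. The 2 dimmer probes, detected on 8 arrays each, gave differences of 0.82 and 0.04, with p adjusted over all probes of 0.0226 and 0.876, so that 1 of the 3 probes did not share the rise.

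Ifitm2 read 8.25, 7.42 and 6.55 in tumour Treg cells against 6.55, 4.55 and 4.89 in spleen, and 6.62, 7.08 and 6.10 in tumour Tconv cells against 5.03, 4.30 and 4.13. In CD8 cells it read 5.93, 6.00 and 4.69 in tumour and 5.33, 5.72 and 4.25 in spleen. The tissues did not overlap in Treg or Tconv cells and overlapped in CD8 cells, but the tumour effect was not shown to differ between Treg and CD8 cells (difference of differences 1.63 ± 0.80, adjusted p = 0.637 in limma). The mean difference was 1.54 ± 0.33 (SE, adjusted p = 0.0104 in limma), or 1.30, 1.97 and 1.36 by BeadChip.

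The 3 Ifitm calls were lost without BeadChip 2, where the mean differences of Ifitm3, Ifitm1 and Ifitm2 were 1.90, 1.41 and 1.33 with adjusted p of 0.0636, 0.198 and 0.210. Ifitm1 also missed the threshold without BeadChip 3 (1.76, adjusted p = 0.0634). Calls over all genes in this comparison fell as well, from 760 to 311 without BeadChip 2 and to 340 without BeadChip 3. Without background correction the differences kept their sign and were smaller, at 1.10, 0.68 and 0.73. The 3 genes lie next to each other on chromosome 7 and encode close relatives, so that a probe of 1 may take up transcripts of another, which was not tested.

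**Figure D2:**
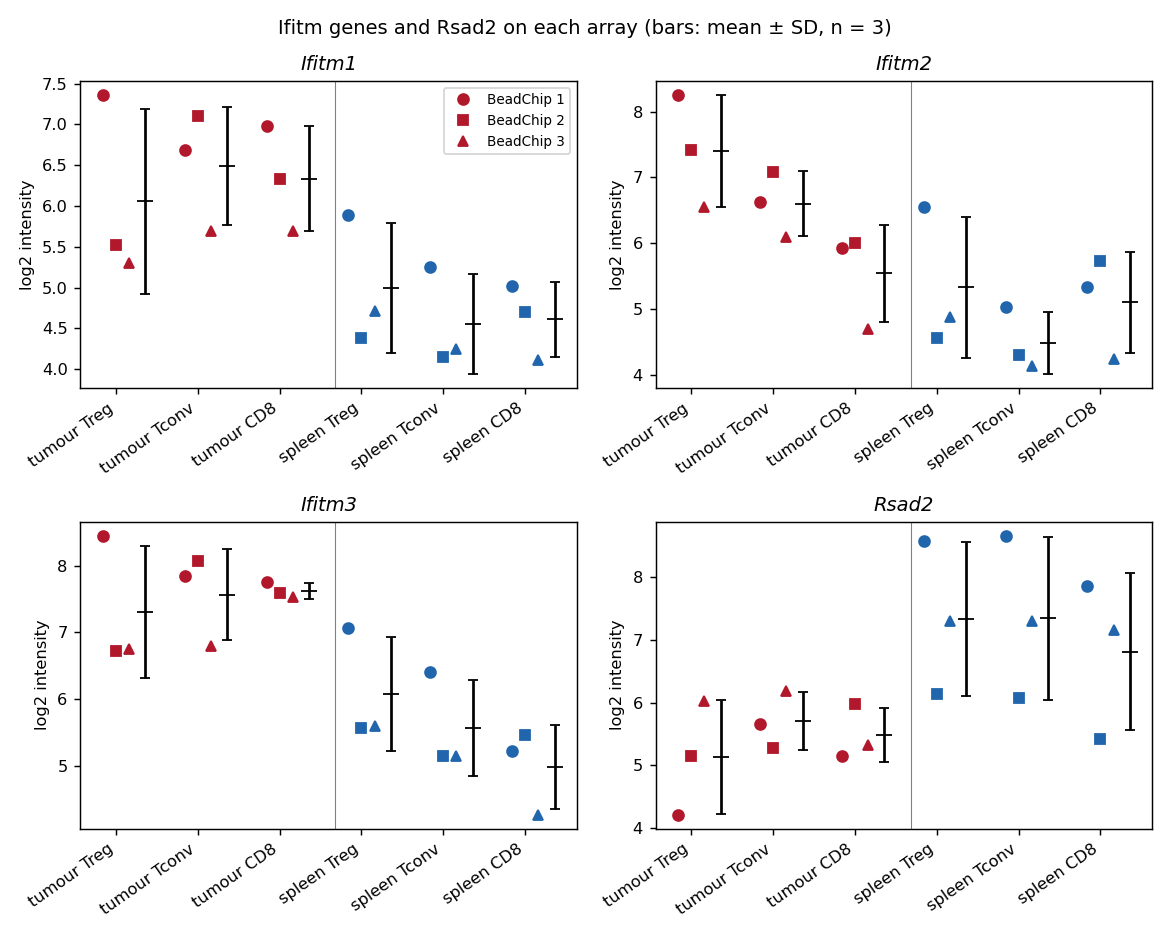
Log2 intensity of Ifitm1, Ifitm2, Ifitm3 and Rsad2 on each array (red, tumour; blue, spleen), with the shape of a point giving its BeadChip and bars the mean ± SD of 3 arrays. The Ifitm genes are higher in tumour, and the spleen arrays of BeadChip 1 lie above the other spleen arrays of Treg and Tconv cells. Rsad2 is higher in spleen on BeadChips 1 and 3, and on BeadChip 2 the tissues lie close together.

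Taken 1 population at a time, fewer members passed. In CD8 cells Ifitm3 rose in tumour, by 2.63 ± 0.54 (SE, 6.21-fold, adjusted p = 0.0251), as the only member called in either direction, beside 1.17% of all genes. Ifitm3 was above background on 2 of the 3 spleen CD8 arrays, and the remaining array read 4.28, near the floor. In Treg cells 0 of 31 members passed (2.44% of all genes) and in Tconv cells 0 of 31 (1.19% of all genes). At an unadjusted p under 0.05 there were 10 members in Treg cells (11.6% of all genes), 8 in Tconv cells (9.72%) and 10 in CD8 cells (11.3%). Ifitm2 was the nearest in Treg cells (2.07 ± 0.57, adjusted p = 0.0773) and in Tconv cells (2.11 ± 0.57, adjusted p = 0.105). With the replicate block, that is with the BeadChip as a term, limma called Ifitm2 in Treg cells (adjusted p = 0.00964), beside 2.54% of all genes. In Tconv cells it then called Ifitm2, Ifitm3 and Ifitm1 (adjusted p = 0.0133, 0.0150 and 0.0112), beside 1.32%, and in CD8 cells Ifitm1 and Ifitm3 (adjusted p = 0.0262 and 0.00241), beside 1.19%. Ifitm2 in Treg cells passed in 5 of 29 other settings, the block among them. The rest were median scaling, the authors' deposited value table, and leaving out spleen Treg BeadChip 1 or tumour Treg BeadChip 3.

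The CD8 call of Ifitm3 was lost in 11 of 29 other settings with the direction kept. Among them were each of the 3 tumour CD8 arrays left out in turn (adjusted p = 0.0844, 0.0748 and 0.0569) and the spleen CD8 arrays of BeadChips 1 and 3 (0.0545 and 0.0832). It was also lost without BeadChip 2 (adjusted p = 0.180) or 3 (0.244), where calls over all genes fell from 170 to 57 and 56.

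Markers of macrophages and monocytes moved with the Ifitm genes. The 12 of 19 such markers that rose in tumour over the mean of the populations, where 0 fell, included Lyz2, Cd68, Fcer1g, Tyrobp and Apoe. Their summed intensity above the offset ran from 862 to 2264 in tumour Treg, 786 to 2265 in tumour Tconv and 1496 to 2281 in tumour CD8 arrays. In spleen it ran from 170 to 1038, 160 to 944 and 172 to 677 in the same order. The arrays of BeadChip 1 had the highest sum in 5 of the 6 groups. Within spleen Treg cells the array with the highest sum, 1038, also had the highest mean Ifitm level, 6.50, against 4.84 and 5.07 at sums of 350 and 170, and within spleen Tconv cells the sum of 944 went with a mean level of 5.56 against 4.54 and 4.51. In each tumour group the array with the lowest sum had the lowest mean Ifitm level. At sums of 2264, 1317 and 862 in tumour Treg cells the mean level was 8.02, 6.55 and 6.20. At 2265, 1940 and 786 in tumour Tconv cells it was 7.05, 7.41 and 6.19, and at 2123, 2281 and 1496 in tumour CD8 cells it was 6.89, 6.64 and 5.97. In spleen CD8 cells the order differed, since the array with a sum of 172 had a mean Ifitm level of 5.30 and that with 677 had 5.19. Of the 19 markers, 17 had a positive mean difference. Csf1r, a receptor of the lineage among these markers, had group means near the floor, between 4.34 and 4.53, and was detected on 9 arrays. Itgam, the CD11b gene of the sort and not among the 19, had group means of 4.13 to 4.43 and was detected on 3. Levels of such dim probes do not measure absence of expression. Without BeadChip 1 the mean differences of Ifitm3, Ifitm1 and Ifitm2 were 2.04, 1.55 and 1.67 with adjusted p of 0.00318, 0.0103 and 0.0333. The part of the macrophage markers in the Ifitm result was not tested.

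**Figure D3:**
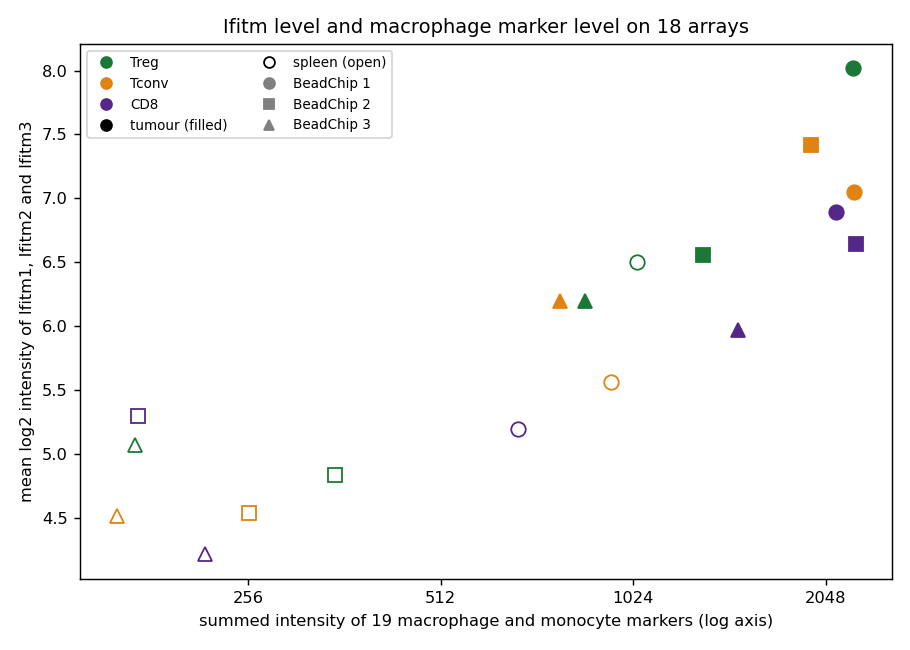
For each array, the mean log2 intensity of Ifitm1, Ifitm2 and Ifitm3 against the summed intensity above the offset of 19 macrophage and monocyte markers, on a log axis, with colour for the population, filled points for tumour, open points for spleen and shape for the BeadChip. All tumour arrays but 2 lie to the right of the spleen arrays, with the 2 at 786 and 862 among spleen arrays of BeadChip 1.

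Markers of other cells also differed between the tissues. Of 10 melanoma markers 4 rose in tumour, of 6 erythroid markers 5 fell, of 7 markers of plasmacytoid dendritic cells, which make much interferon, 1 fell (Pacsin1), and of 6 markers of conventional dendritic cells 1 rose (Clec10a). Clec10a rose by 4.56 ± 0.19 (SE, adjusted p = 3.15e-09 in limma) over the mean of the populations. For the conventional dendritic list the lowest summed level of a tumour array was 272 and the highest of a spleen array 67.7. For the melanoma list these were 472 and 120. For the erythroid list the highest tumour array had 1352 and the lowest spleen array 2679. The tissues thus did not overlap in these sums, to which bright genes add most. Clec10a averaged 8.85 in tumour and 4.30 in spleen, and the other 5 genes of its list were not called over the mean of the populations. The median difference of that list was 0.10. Gpnmb, a melanoma marker, averaged 8.88 and 4.75. It was the only 1 of the 10 called in Tconv and in CD8 cells, while 4 were called in Treg cells. The median difference of the melanoma list was 0.72. The summed plasmacytoid level did overlap, from 80.0 to 281 in tumour and from 110 to 275 in spleen arrays. The part of these cells in the values of the members was not tested.

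Rsad2 was lower in tumour, with an unequal size on the 3 BeadChips. In spleen it read 8.58, 6.13 and 7.30 in Treg, 8.66, 6.07 and 7.30 in Tconv and 7.87, 5.43 and 7.15 in CD8 cells. In tumour it read 4.22, 5.14 and 6.03 in Treg, 5.66, 5.28 and 6.19 in Tconv and 5.16, 5.98 and 5.33 in CD8 cells. In all 3 spleen populations the array of BeadChip 1 was highest and that of BeadChip 2 lowest, and this order was not seen in tumour. The mean difference was -1.72 ± 0.43 (SE, adjusted p = 0.0277 in limma), and it was -3.36, -0.41 and -1.40 on BeadChips 1, 2 and 3. On BeadChip 2 the CD8 cells ran the other way, with 5.98 in tumour and 5.43 in spleen. Without BeadChip 1 the mean difference was -0.91 (adjusted p = 0.325), and the call was lost in 16 of 28 other settings, among them median scaling (-1.55, adjusted p = 0.0922). Leaving out any 1 of the 6 arrays of BeadChip 1 gave adjusted p of 0.0514 to 0.0566. The call was also lost without the tumour Treg or tumour Tconv array of BeadChip 2 (0.05004 and 0.0575). The same held for the spleen Treg or spleen CD8 array of BeadChip 3 (0.0516 and 0.0532). Cmpk2, a nucleotide kinase and the neighbour of Rsad2 on chromosome 12, had a mean difference of -0.62 ± 0.20 that did not pass (adjusted p = 0.0980), with -0.98, -0.64 and -0.24 by BeadChip.

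Among the genes of interferon signalling, none passed in tumour against spleen. Irf9, the DNA-binding subunit of the complex, read 7.46, 6.83 and 6.47 on average in tumour Treg, Tconv and CD8 cells and 7.92, 7.38 and 7.35 in the spleen cells. Stat2 averaged 5.91, 5.97 and 5.57 in tumour and 6.57, 5.71 and 5.54 in spleen, with the spleen Treg mean the highest. Irf7 lay near the floor, with group means of 4.12 to 4.50.

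The sensors Ddx58 (RIG-I), Dhx58 (LGP2, its regulator) and Zbp1, a sensor of nucleic acid in the Z form, had mean differences of -0.10, -0.63 and -0.08, and none passed. Dhx58 in CD8 cells averaged 4.50 in tumour and 5.72 in spleen, but the spleen arrays read 6.49, 4.35 and 6.31. The middle array lay at the level of the tumour arrays, and without it the difference of -1.22 (adjusted p = 0.253) became -1.90 (adjusted p = 0.00258).

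Of the effectors directed at RNA, Oasl1 had a mean difference of -0.58, Oasl2 of -0.41, Ifit3 of -0.30, Ifit2 of -0.19 and Isg20 of -0.25, against 0.16 for Eif2ak2 and 0.02 for Oas3. None of them passed. Oas2 was not above background on any array of tumour CD8 or spleen Treg cells, so no exact difference is given for it. In the ISG15 system, Isg15, a ubiquitin-like modifier, averaged 5.90 in tumour and 6.73 in spleen Treg cells, 5.68 and 6.51 in Tconv cells, and 5.80 and 5.84 in CD8 cells. Its differences of -0.83 ± 0.33 in Treg and in Tconv cells did not pass (adjusted p = 0.311 and 0.412). Usp18, which removes Isg15 from proteins, was among the most variable members, and its brightest probe had a mean difference of -0.86 that did not pass. Its other probe had -1.13, with p adjusted over all probes of 0.0076, so the 2 probes of Usp18 differed in call and shared the direction.

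In Treg cells 12 of 31 members had all 3 tumour arrays below all 3 spleen arrays, beside 9.74% of all genes, and 3 had them above, beside 10.2%. The 12 were Stat2, Irf9, Ddx58, Oasl2, Ifit2, Ifit3, Rsad2, Isg15, Ifi35, Rtp4, Trim30a and Sp100, and the 3 were Oas2, which was not above background in spleen Treg cells, Isg20 and Ifitm2. This count depended on the scaling. With median scaling, which moved the median of all genes in this comparison to 0.13, 3 members lay below (Oasl2, Ifit3 and Isg15) and 4 above, beside 4.20% and 18.8% of all genes, and the median difference of the members went from -0.14 to 0.15. In Tconv cells 2 members lay below and 4 above (7.22% and 7.52% of all genes), and in CD8 cells 4 lay below and 4 above (6.80% and 6.69%).

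**Figure D4:**
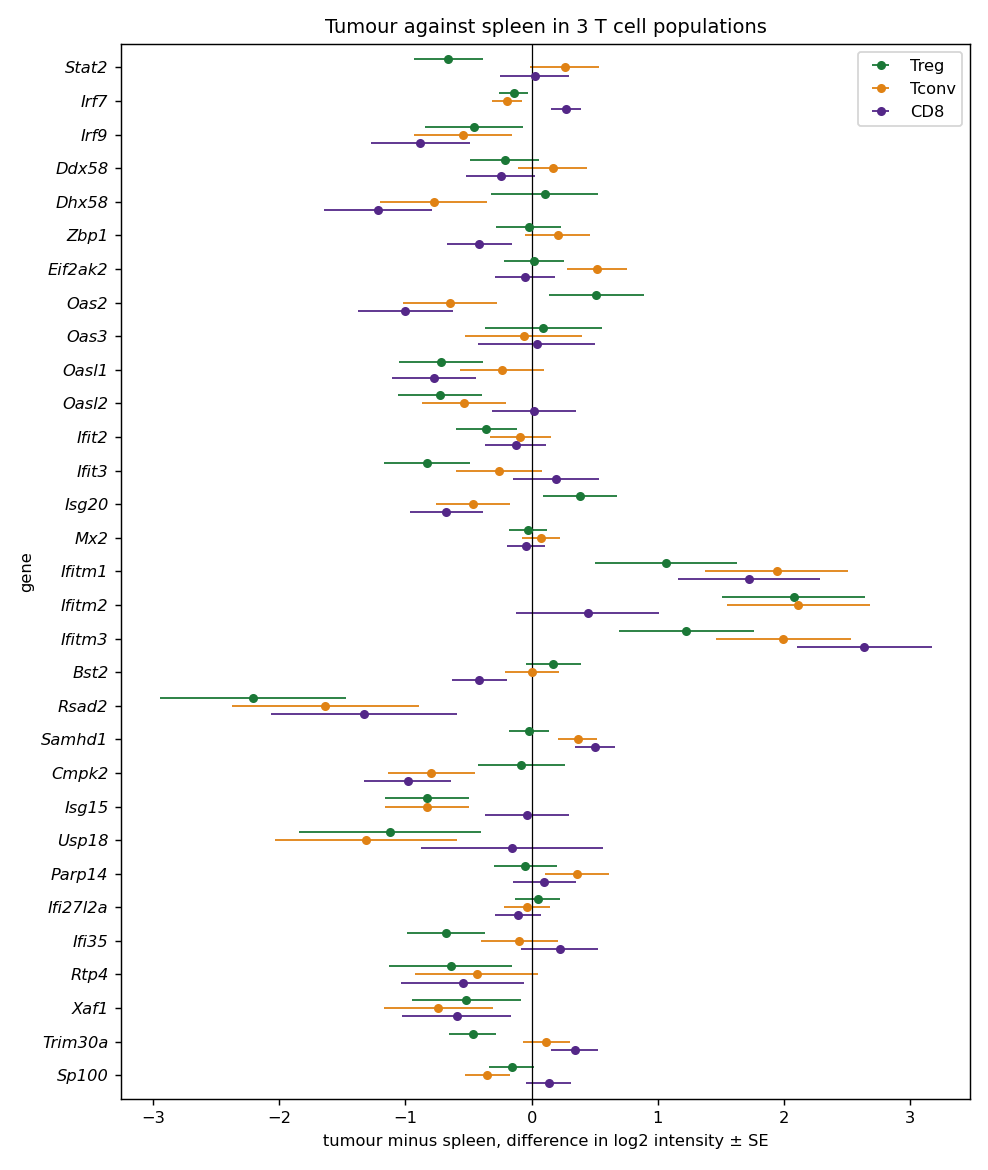
Difference in log2 intensity between tumour and spleen for each of the 31 members in Treg, Tconv and CD8 cells, with bars of 1 SE from limma. The 3 Ifitm genes lie to the right in each population, Rsad2 to the left, and the other members within about 1.3 of 0. Irf7, Oas2 and Mx2 were not above background in at least 1 group, so their points are not exact differences.

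Whether the tumour effect differed between populations was tested as a difference of differences. For Treg against Tconv 0 of 31 members passed (0.137% of all genes) and 3 had an unadjusted p under 0.05 (6.37%). For Treg against CD8 0 of 31 passed (0.233%) and 6 had an unadjusted p under 0.05 (8.09%). The nearest were Trim30a, a regulator of innate signalling, in Treg against CD8 cells (-0.81 ± 0.26, adjusted p = 0.332), and Stat2 in Treg against Tconv cells (-0.92 ± 0.39, adjusted p = 0.736). The larger Ifitm3 difference in CD8 cells is therefore not shown to differ from that in Treg cells.

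Between populations, Treg cells carried more Samhd1 and Eif2ak2 than Tconv cells in spleen and more Isg20 in tumour. In spleen 2 of 31 members were higher in Treg cells and 0 lower (1.60% of all genes called), and in tumour 1 was higher and 0 lower (2.72%). At an unadjusted p under 0.05 there were 8 members in spleen (8.66% of all genes) and 7 in tumour (12.6%). The median differences of the members, 0.02 in spleen and -0.06 in tumour, were near those of all genes, -0.01 and -0.00.

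Samhd1 cuts deoxynucleotide triphosphates and so limits reverse transcription. It read 9.74, 9.95 and 9.77 in spleen Treg, 9.02, 8.85 and 8.90 in spleen Tconv and 8.92, 8.68 and 8.48 in spleen CD8 arrays. In tumour it read 9.42, 9.96 and 10.02 in Treg, 9.21, 9.41 and 9.24 in Tconv and 9.11, 9.26 and 9.21 in CD8 arrays. Treg arrays lay above all Tconv and CD8 arrays of the same tissue, by the narrowest margin on BeadChip 1 of the tumour. The difference of Treg from Tconv cells was 0.90 ± 0.16 in spleen (SE, 1.87-fold, adjusted p = 0.00568), with 0.72, 1.10 and 0.88 by BeadChip, and 0.52 ± 0.16 in tumour (adjusted p = 0.113). The other 2 probes gave 0.72 and 0.73 in spleen and 0.78 and 0.59 in tumour, and with p adjusted over all probes the first of them passed in both tissues (0.00802 and 0.003). The spleen call was lost with median scaling (0.96, adjusted p = 0.0583), without BeadChip 2 (0.80, adjusted p = 0.283) and without BeadChip 3 (0.91, adjusted p = 0.171). The tumour difference passed without the tumour Treg array of BeadChip 1 (0.70, adjusted p = 0.0158). It also passed with median scaling and with the mean of the detected probes, making 3 of 29 other settings.

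Eif2ak2 encodes PKR, the kinase that halts translation on double-stranded RNA. It read 8.92, 9.27 and 9.36 in spleen Treg, 7.70, 7.49 and 8.22 in spleen Tconv and 7.81, 8.43 and 8.52 in spleen CD8 arrays. In tumour it read 9.44, 9.20 and 8.97 in Treg, 8.38, 8.60 and 7.99 in Tconv and 8.27, 8.39 and 7.94 in CD8 arrays. The 6 Treg arrays were the 6 highest of the 18, with no overlap in either tissue. Treg cells exceeded Tconv cells by 1.38 ± 0.24 in spleen (SE, 2.60-fold, adjusted p = 0.00507) and by 0.88 ± 0.24 in tumour (adjusted p = 0.0691). The spleen difference was 1.22, 1.78 and 1.14 by BeadChip, and its call was lost without BeadChip 1 (1.46, adjusted p = 0.0659), without BeadChip 2 (1.18, adjusted p = 0.261) and in a fit to the 2 groups alone (adjusted p = 0.0513). The tumour difference passed without the spleen CD8 array of BeadChip 1 or the spleen Tconv array of BeadChip 3 (adjusted p = 0.0404 and 0.0498), arrays that enter it only through the shared spread. The tumour difference also passed without background correction, with median scaling and with the authors' deposited value table, making 5 of 29 other settings. The difference was not tested between the tissues beyond the difference of differences above, where Eif2ak2 did not pass.

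Isg20 is an exonuclease that degrades single-stranded RNA. It read 6.72, 6.54 and 6.46 in tumour Treg, 5.07, 4.37 and 5.61 in tumour Tconv and 5.20, 4.90 and 4.42 in tumour CD8 arrays. In spleen it read 6.20, 6.35 and 6.02 in Treg, 5.80, 5.71 and 4.93 in Tconv and 5.71, 5.57 and 5.27 in CD8 arrays. The 6 Treg arrays were again the 6 highest. The difference of Treg from Tconv cells was 1.56 ± 0.29 in tumour (SE, 2.95-fold, adjusted p = 0.00746), with 1.65, 2.17 and 0.85 by BeadChip, and 0.71 in spleen, which did not pass. The tumour call was lost without BeadChip 1 (1.51, adjusted p = 0.160), without BeadChip 2 (1.25, adjusted p = 0.217) and in a fit to the 2 groups alone (adjusted p = 0.0887).

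Not all members ran this way. Ifit3, which stabilises Ifit1 on RNA, read 6.39, 6.82 and 6.47 in tumour Treg and 7.51, 7.42 and 7.75 in tumour Tconv cells, a difference of -1.001 ± 0.34 that did not pass (adjusted p = 0.174). Ifit2, another RNA-binding member of that family, read 7.45, 7.78 and 7.74 in tumour Treg and 8.03, 8.23 and 8.69 in tumour Tconv cells, a difference of -0.66 ± 0.24 (adjusted p = 0.221). With the replicate block, which called 2.83% of all genes, Ifit2 passed (adjusted p = 0.0403) and Isg20, Eif2ak2 and Samhd1 kept their sides of the threshold. In tumour 5 members had Treg arrays wholly above Tconv arrays (9.67% of all genes) and 4 wholly below (8.06%), and in spleen 8 lay above (8.50%) and 2 below (7.07%). The 8 of spleen were Stat2, Irf9, Eif2ak2, Isg20, Samhd1, Parp14, Ifi27l2a and Trim30a. With median scaling the tumour counts were 10 above and 2 below, beside 16.5% and 3.50% of all genes, and the spleen counts 5 above and 1 below, beside 8.47% and 4.40%.

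**Figure D5:**
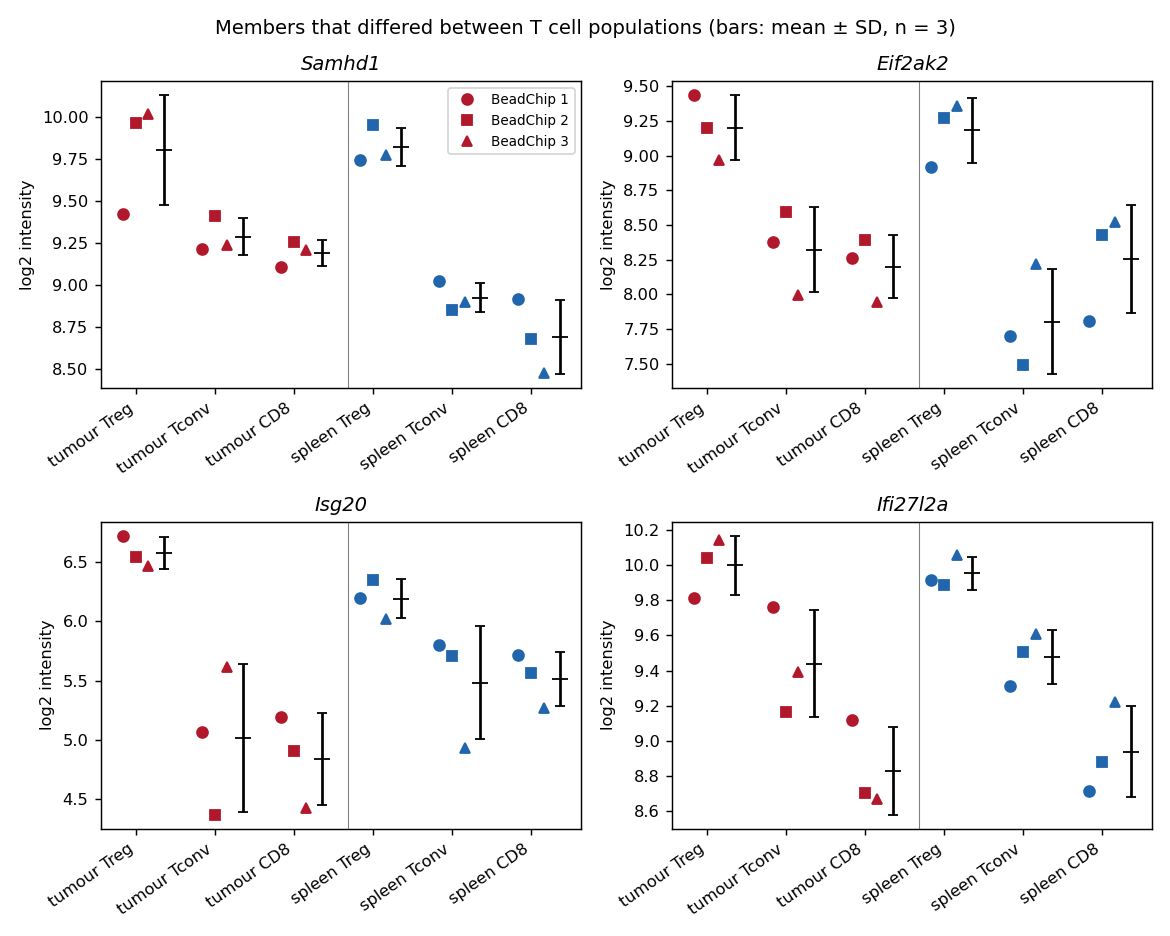
Log2 intensity of Samhd1, Eif2ak2, Isg20 and Ifi27l2a on each array (red, tumour; blue, spleen), with the shape of a point giving its BeadChip and bars the mean ± SD of 3 arrays. Treg arrays are the highest of each tissue in all 4 panels, and Ifi27l2a falls from Treg to Tconv to CD8 cells in both tissues.

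Ifi27l2a, a small membrane protein of uncertain role, differed between populations and hardly between tissues. It read 9.81, 10.04 and 10.14 in tumour Treg, 9.76, 9.17 and 9.39 in tumour Tconv and 9.12, 8.70 and 8.67 in tumour CD8 arrays. In spleen it read 9.92, 9.88 and 10.06 in Treg, 9.31, 9.51 and 9.61 in Tconv and 8.71, 8.88 and 9.22 in CD8 arrays. The populations did not overlap within a tissue, and the order Treg, Tconv, CD8 was the same in both. The moderated F test of limma over the 6 groups called it, while the steps between neighbours did not pass, at 0.56 ± 0.18 and 0.48 ± 0.18 for Treg against Tconv in tumour and spleen (adjusted p = 0.142 and 0.364) and -0.61 ± 0.18 and -0.54 ± 0.18 for CD8 against Tconv (adjusted p = 0.253 and 0.255).

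CD8 and Tconv cells did not differ past the threshold in any member. In tumour 0 of 31 passed in limma (0.521% of all genes) and 4 had an unadjusted p under 0.05 (7.65%). In spleen 0 of 31 passed (0.816%) and 5 had an unadjusted p under 0.05 (10.1%). The CD8 arrays lay wholly above the Tconv arrays for 0 members in tumour (6.40% of all genes) and 1 in spleen (6.78%), and wholly below for 3 in tumour (6.39%) and 3 in spleen (5.93%). Xaf1, an interferon-induced antagonist of the apoptosis inhibitor XIAP, averaged 4.53 in tumour CD8 and 5.52 in tumour Tconv cells and 5.12 and 6.26 in the spleen cells, with differences of -0.99 ± 0.43 and -1.14 ± 0.43 (adjusted p = 0.597 and 0.353). The tumour Tconv arrays of Xaf1 read 6.38, 4.22 and 5.96, and without the middle one the tumour difference was -1.65 (adjusted p = 0.0339). Oasl1 in tumour (-0.90 ± 0.33, adjusted p = 0.440) and Irf7 in spleen were also nearest to the threshold. Irf7 was detected on all 3 spleen Tconv arrays (mean 4.50) and on 0 of 3 spleen CD8 arrays (mean 4.12), so its difference is a bound. With each CD8 array taken at the lowest signal detected on it, or at its own where higher, the Tconv level was at least 1.20-fold higher (adjusted p = 0.190 in limma, not passing).

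Over the 6 groups at once, the F test called 6 of 31 members beside 8.22% of all genes. They were Eif2ak2, Samhd1, Ifi27l2a, Isg20, Ifitm3 and Ifitm2, and with the replicate block Ifit2 and Ifitm1 were called as well, beside 8.12% of all genes. The members with the flattest group means were Mx2, which stayed near the floor (group means 4.14 to 4.35), Irf7, Bst2, a tether of budding virions (4.94 to 5.35), Trim30a (7.28 to 7.78) and Sp100, a nuclear body protein (8.15 to 8.65). Parp14, an ADP-ribosyltransferase, ranged from 7.70 to 8.34, Rtp4, a receptor transporter, from 5.68 to 6.60, Ifi35 from 4.67 to 5.35 and Zbp1 from 6.65 to 7.23, and none of them passed.

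Other genes of the pathway were taken from lists chosen by function. Over the mean of the populations, 5.21% of all genes were called. Of 12 tested genes of the receptor and its signalling, Socs3, a feedback inhibitor of cytokine receptors, rose in tumour over the mean of the populations (0.61 ± 0.15, adjusted p = 0.0211 in limma) and Ptpn6, the phosphatase SHP-1, fell (-0.65 ± 0.09, adjusted p = 0.000317), while the other 10 did not pass. Of 15 tested genes of sensing and induction none passed in that comparison. Of the ligands only 4 were tested (Ifna1, Ifna5, Ifne and Ifnz), and none passed. Of 40 other interferon-induced genes, Trafd1 (0.65 ± 0.10, adjusted p = 0.0012) and Apobec3, a cytidine deaminase (0.50 ± 0.09, adjusted p = 0.00431), rose in tumour, and Lgals9 (-0.39 ± 0.08, adjusted p = 0.0118) and Lgals3bp (-0.46 ± 0.10, adjusted p = 0.0124) fell. Their median difference was -0.13, beside -0.12 for the members. By population, Slfn1, a Schlafen gene of this list, was lower in tumour than in spleen Treg cells (-0.80 ± 0.20, adjusted p = 0.0473 in limma). Lgals9 was lower in tumour CD8 cells (-0.69 ± 0.14, adjusted p = 0.0288). Higher in tumour were Trafd1 in Treg cells (0.77 ± 0.18, adjusted p = 0.0320) and, in Tconv cells, Epsti1 (0.91 ± 0.18, adjusted p = 0.0197) and Apobec3 (0.78 ± 0.16, adjusted p = 0.0266). Within the tumour, Slfn1 was lower in Treg than in Tconv cells (-0.95 ± 0.20, adjusted p = 0.016). Apobec3 was higher in Treg than in Tconv cells in spleen (0.81 ± 0.16, adjusted p = 0.017). Epsti1 was higher in CD8 than in Tconv cells in tumour (0.97 ± 0.18, adjusted p = 0.021) and in spleen (1.85 ± 0.18, adjusted p = 5.63e-05), where 0 members of the module passed. Irf8, a regulatory factor from the list of sensing and induction that is also a marker of plasmacytoid dendritic cells, was higher in tumour Treg than in tumour Tconv cells (means 6.70 and 4.32, adjusted p = 0.00902), and was above background on 1 of the 3 Tconv arrays.

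Genes tied to interferon gamma gave other calls. Of 24 tested, Ifng itself and its receptor chain Ifngr1 were called higher in tumour over the mean of the populations, by 1.41 ± 0.19 and 1.89 ± 0.11 (adjusted p = 0.000329 and 9.82e-08). Ifngr1 was called in each population. Ifng rose in Tconv and CD8 cells, by 2.00 ± 0.34 and 2.26 ± 0.34 (adjusted p = 0.00606 and 0.00232), whereas in Treg cells it averaged 5.28 in tumour and 5.31 in spleen. Within the tumour, 3 of the 24 were called higher in Treg than in Tconv cells and 0 lower. They are the GTPases Igtp (0.94 ± 0.14, adjusted p = 0.00131), Gbp5 (0.91 ± 0.23, adjusted p = 0.0436) and Iigp1, which was not above background in tumour Tconv cells and was at least 1.56-fold higher in Treg cells (adjusted p = 0.0125). In spleen Gbp5 was the 1 gene of this list called, higher in Treg cells (1.42 ± 0.23, adjusted p = 0.0027).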

How the data were processed

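RNA of 18 samples, 3 in each of 6 groups, was read on Illumina mouse BeadChips after amplification of 2.5 ng, per the labels' protocols. The deposited table gives a mean bead intensity and a detection p-value for each of 46237 probes, without background correction or normalization per the file headers. The authors also deposited a table of processed intensity values, linear and with column medians of 83.5 to 85.9, of unknown centring and normalization; its rank correlation with the signals was at least 0.999. The software was not given in the sources used here.

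Background was removed by the neqc function (limma 3.58.1, R 4.3.3) from the detection p-values, with an offset of 16, quantile normalization and log2. The offset compresses folds of dim genes. Of the probes, 35784 had 1 gene name and 10453 had none in the platform annotation, and 27474 were detected on at least 3 arrays. Each gene was given by its brightest detected probe, which left 14581 genes. All arrays entered 1 limma model with 6 group means and 12 residual degrees of freedom, with Benjamini-Hochberg adjustment over all genes and a threshold of 0.05. Motifs were searched in RefSeq windows of build GRCm38.p6 with Python 3.11.15.

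Replicate numbers pair the arrays by BeadChip, per the labels. Same-numbered arrays of different groups had a mean residual correlation of 0.0424 over 45 pairs, 5 of them over 0.1, beside -0.0208 for arrays of different numbers. The labels do not say if replicates are separate pools of animals, so a p-value reflects only how far these samples spread, and the number of arrays limits the precision. Members, lists and the rule for named genes (members called or nearest to the threshold in each comparison, and those called over the 6 groups) were chosen with earlier results of these data known. Alternatives changed the background, scaling, value table, filter, probe rule, block, samples in the fit and arrays left out. Array probes of related genes may cross-hybridise. A protein alignment of the Ifitm genes was not made here.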

Additional observations from a re-analysis of the deposited data

How the results depend on the processing

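Counts of members called are given here where they moved by over 1.5 times. Without background correction 0 members were called in tumour against spleen CD8 cells and 2 in tumour Treg against Tconv cells (main counts 1 and 1). Calls over all genes there were 144 and 418, against 170 and 397. Median scaling, which moved the median of all genes by over 0.1 (to 0.13 in tumour against spleen Treg cells and 0.15 in tumour Treg against Tconv cells), gave 1 in tumour against spleen Treg cells, 4 in tumour Treg against Tconv cells and 1 in spleen Treg against Tconv cells. It split the calls of all genes as 588 higher and 41 lower, 662 and 55, and 117 and 24 in these comparisons, against 252 and 104, 277 and 120, and 159 and 74. Over the mean of the populations the split was 668 and 72 against 503 and 257. It also reversed Trim30a in tumour against spleen Treg cells, at 0.0468 against -0.47, neither past the threshold. The authors' deposited value table gave 1 in tumour against spleen Treg cells, 0 in CD8 cells and 2 in tumour Treg against Tconv cells, no detection filter gave 0 in CD8 cells, and the mean of a gene's probes gave 2 in tumour Treg against Tconv cells. Over the mean of the populations the mean of a gene's probes gave 3 higher and 3 lower, against 3 and 1. Over all genes the higher calls then went from 503 to 561 and the lower from 257 to 305. For the deposited table, calls over all genes were 408, 145 and 459 in the comparisons named, against 356, 170 and 397. With no detection filter 143 of 21946 genes were called in CD8 cells. With the mean of a gene's probes 491 were called in tumour Treg against Tconv cells.

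With the replicate block 1 member was called in tumour against spleen Treg cells, 3 in Tconv cells, 2 in CD8 cells and 2 in tumour Treg against Tconv cells, and it ended no call of a member. In fits to the groups compared alone the counts were 1 (Isg15) in tumour against spleen Treg cells, 0 in CD8 cells, 0 in tumour Treg against Tconv cells and 1 in spleen. Calls over all genes fell as well in these fits, from 356 to 253, 170 to 15, 397 to 185 and 233 to 185. With 1 array or 1 BeadChip left out, the counts ran from 0 to 1 in tumour against spleen Treg cells, 0 to 0 in Tconv cells, 0 to 2 in CD8 cells and 1 to 5 over the mean of the populations. They ran from 0 to 2 for Treg against Tconv cells in tumour and 0 to 2 in spleen, 0 to 1 for CD8 against Tconv cells in tumour and 0 to 0 in spleen, 0 to 1 for the difference of tumour effects between Treg and CD8 cells, 0 to 0 between Treg and Tconv cells, and 0 to 7 over the 6 groups. Without BeadChip 1, 2 or 3, calls over all genes fell from 760 to 507, 311 and 340 over the mean of the populations. Over the 6 groups they fell from 1199 to 700, 424 and 442. In tumour against spleen Treg cells they fell from 356 to 174, 88 and 121. The CD8 comparison went from 170 to 103, 57 and 56. Treg against Tconv cells went from 397 to 190, 132 and 133 in tumour and from 233 to 135, 64 and 73 in spleen. The cause of these shifts was not tested, beyond the fewer arrays of the last 2 kinds of fit. Signal over background limits Irf7, Oas2 and Mx2, which were not well above background on any array of at least 1 group. It also limits Ifitm1 and Ifitm2, which were not on some spleen arrays, and Ifitm3, detected on 2 of 3 spleen CD8 arrays.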

Other observations

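Across the 465 pairs of tested members, the correlation of their within-group deviations over the 18 arrays had a median of -0.02 and ran from -0.78 to 0.93, and the 3 pairs above 0.8 were those among Ifitm1, Ifitm2 and Ifitm3. These arrays share BeadChips and 12 residual degrees of freedom, and the values are a description.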
